A study of Mus musculus with 8 samples.

Results

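Integrins and laminins were followed in tongue buds, the embryonic swelling that becomes the tongue, of mice that lose a TGF-beta receptor in the neural crest. Every gene whose symbol names an integrin alpha or beta subunit or a laminin alpha, beta or gamma chain was taken, provided that a probe set of the array names that gene alone. That gave 34 genes out of 18193 measured, namely 16 integrin alpha subunits, 8 integrin beta subunits and 10 laminin chains. Each gene was read from its probe set with the highest mean over the 8 arrays. The choice went by symbol, not by measured values, although earlier results of these data were known when it was made.

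The mutant group held 4 tongue buds of Wnt1-Cre;Alk5 fl/fl embryos. The control group held 4 tongue buds of Alk5 fl/fl embryos without the transgene, so all 8 embryos carried the floxed alleles. All were C57BL/6J embryos at embryonic day 13.5 whose sex was not determined, and each bud was hybridised to one array of 1 colour. Alk5 is the type I receptor of TGF-beta, with the gene symbol Tgfbr1, and the Wnt1-Cre transgene inactivates it in cranial neural crest cells, which form the connective tissue of the tongue. Muscle precursors, epithelium, the endothelial lining of vessels and blood cells of the bud lie outside that lineage. The bud therefore remains a mixture of cells with and without the receptor. Since no group carried Wnt1-Cre without the floxed alleles, the transgene itself and the loss of the receptor cannot be told apart. The comparison asked how loss of the receptor in the neural crest changes the tissue around the muscle precursors. The labels number the buds without saying that each came from another litter, and the p-values measure the spread between these samples only.

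Integrins are receptors made of 1 alpha and 1 beta subunit that bind matrix proteins outside the cell and link to the actin cytoskeleton inside it. Laminins are cross-shaped trimers of an alpha, a beta and a gamma chain, and they form the first sheet of every basement membrane. In the tongue bud, basement membranes underlie the epithelium, ensheathe vessels and nerves and begin to surround the muscle fibres. Integrins that hold the alpha v subunit have a further role, since some of them release active TGF-beta from its latent complex.

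The arrays resembled one another closely, with Pearson correlations across probe sets of 0.990 to 0.998 and median log2 values of 5.96 to 6.01. Genes of the labelled tissue were bright on every array, among them Myog of differentiating muscle (mean 12.5), Prrx1 of mesenchyme (11.1) and Krt15 of epithelium (12.0). Tgfbr1, the targeted gene, read 12.42, 12.42, 12.37 and 12.36 in mutants and 12.03, 12.12, 11.97 and 11.89 in controls. The annotation used here does not place its probes relative to the floxed part, so this reading checks neither the deletion nor the labels. Controls 1 and 3 differed most from each other on the second principal component among controls, and control 3 alone lacked Y-linked signal (mean log2 value 3.09 over 3 genes, against 8.44 to 8.73 on the other arrays). Results are therefore given without these arrays where that changes a call.

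In mutant buds 3 of the 34 genes rose and 2 fell. The integrin subunit gene Itgb3 rose 2.41-fold (log2 change 1.27, SE 0.10) and the laminin chain gene Lama1 rose 1.87-fold (0.90, SE 0.081). Itgb8 rose 1.24-fold (0.31, SE 0.084), while Itga6 fell to 0.84 times its control level (log2 change −0.25, SE 0.058) and Itga7 to 0.75 times (−0.41, SE 0.11). A gene passed at an adjusted p of 0.05 in limma, with Benjamini-Hochberg adjustment over all 18193 genes. Over all genes 9.72% passed, 4.2% higher and 5.52% lower, against 5 of 34 here. In 6 of the 34 genes the 4 mutant values and the 4 control values did not overlap, which held for 17.8% of all genes. The 34 genes are thus close to the background by that count. Their median log2 change was −0.04, beside −0.01 over all genes.

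**Figure D1:**
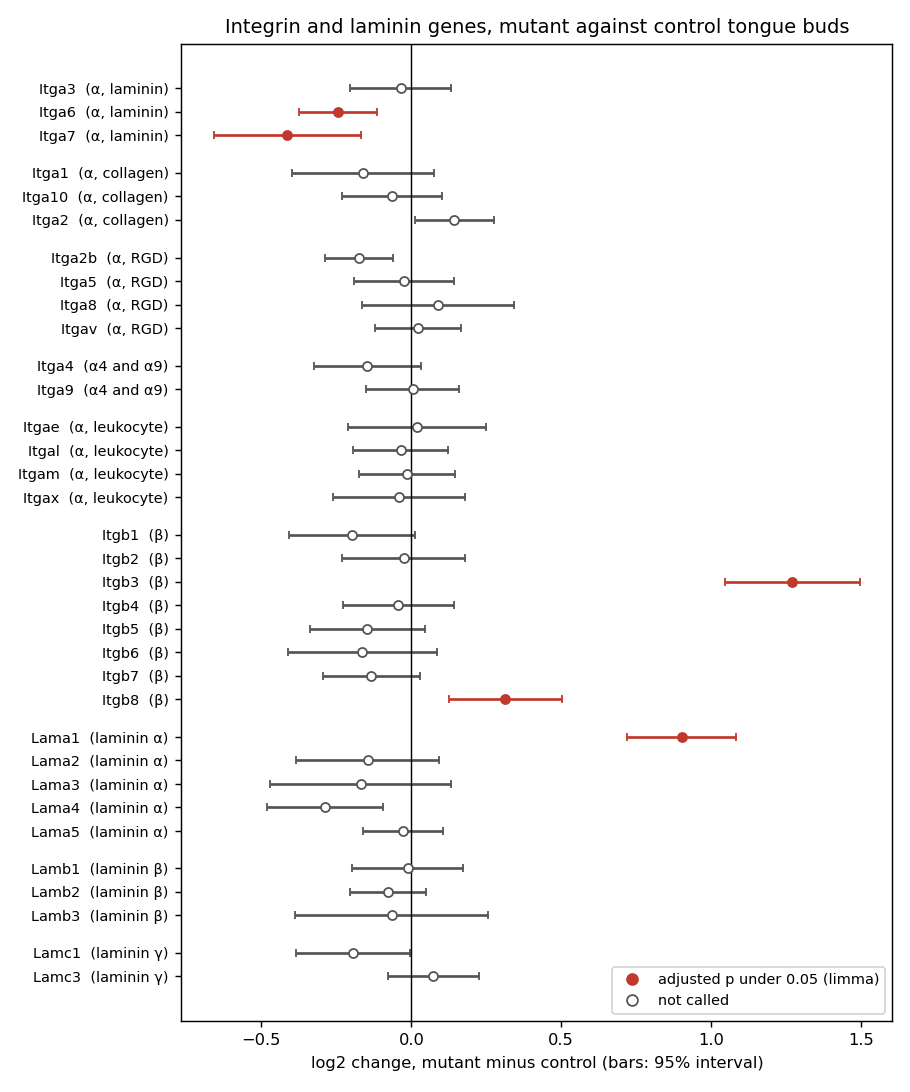
Log2 change (mutant minus control, horizontal axis) of the 34 integrin and laminin genes, grouped by role, with bars for the 95% interval from limma. Filled points passed an adjusted p of 0.05, and Itgb3 (1.27) and Lama1 (0.90) lie far from the other genes, whose values run from −0.41 to 0.31.

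The integrin beta subunits gave the largest difference. Itgb3 encodes β3, which pairs with αv in many cell types and with αIIb in platelets. Its log2 values were 7.72, 7.91, 7.50 and 7.84 in mutants 1 to 4, against 6.38, 6.35, 6.66 and 6.49 in controls 1 to 4. Every mutant bud read above every control bud, with a gap wider than the spread inside either group. The means were 7.74 ± 0.18 in mutants and 6.47 ± 0.14 in controls (SD, n = 4 each), a limma log2 change of 1.27 with a 95% interval of 1.04 to 1.5 and an adjusted p of 0.000157. The call was kept in each of the 19 alternative analyses. A second, dimmer probe set for the gene read 6.12, 5.98, 6.00 and 5.95 in mutants, against 5.94, 5.98, 5.68 and 6.07 in controls. It did not follow the first, with a log2 change of 0.10 (95% interval −0.10 to 0.29), so the rise rests on the brighter probe set. With the mean of both probe sets the change was 0.68 (adjusted p = 0.000213 in limma).

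**Figure D2:**
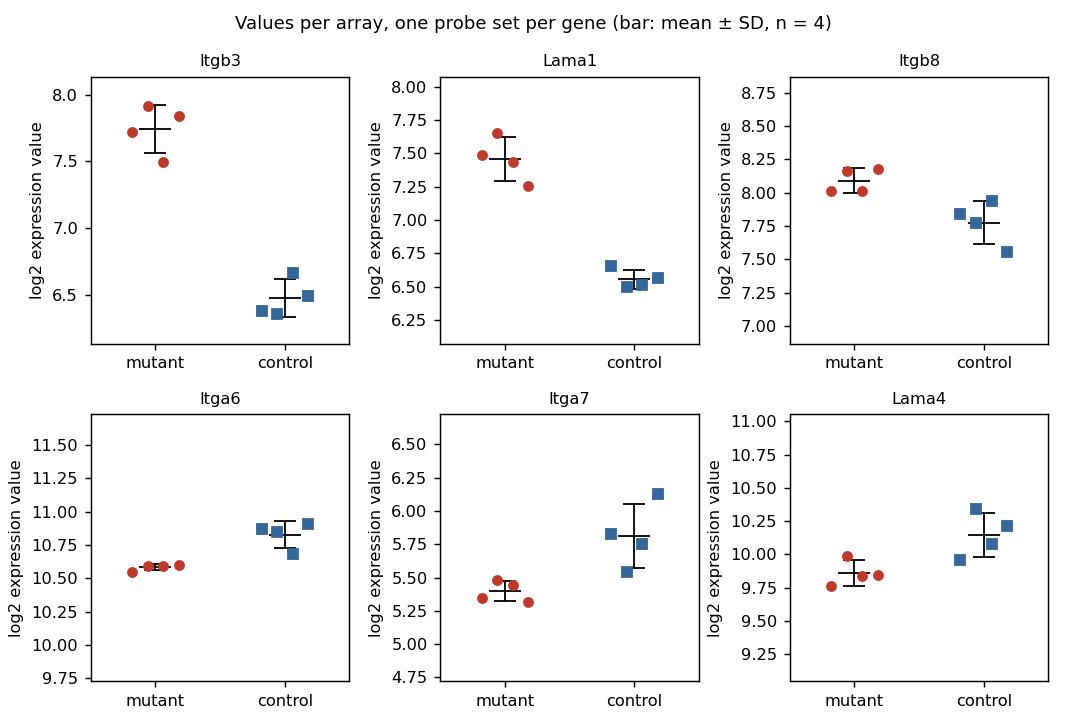
Log2 expression values on each array (points) for the 5 genes that passed and for Lama4, which did not, with mutants left of controls and bars for mean ± SD of 4 arrays. The vertical axes all span 2 log2 units. Itgb3 and Lama1 show a wide gap between the groups, the other genes a narrow one or, for Lama4, an overlap.

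Neither partner of β3 rose with it. Itgav, encoding αv, read 11.56, 11.65, 11.66 and 11.57 in mutants, against 11.71, 11.59, 11.44 and 11.61 in controls, and the groups overlapped fully. Its log2 change was 0.02, with a 95% interval of −0.12 to 0.17. Itga2b, encoding the platelet subunit αIIb, read 7.95, 7.81, 7.80 and 7.85 in mutants, against 8.02, 8.02, 8.0 and 8.08 in controls. The 4 mutant values lay below the 4 control values, yet the gene missed the threshold (log2 change −0.17, limma adjusted p = 0.0638). It passed without mutant 1 (−0.21, limma adjusted p = 0.0419).

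Platelets and vessel walls are among the cells that carry β3, and their markers were read on the same arrays. Of 6 platelet and megakaryocyte markers 1 passed and fell, Pf4, a platelet chemokine that macrophages also make, at −0.72 (−0.60 and no longer passing without controls 1 and 3). The other 5 had log2 changes of −0.17 to −0.01 and did not pass. The summed linear signal of the list, in which Pf4 is the brightest gene, was 497 to 713 in mutants and 733 to 926 in controls. Of 12 endothelial markers 4 passed and rose, among them Cdh5, the cadherin of vessel walls, by 0.51 and Pecam1 by 0.34. The call of Esam, another of the 4 (0.18), was lost in 7 of the 8 fits that left out an array. The summed signal of the endothelial list was 4337 to 5263 in mutants and 3747 to 4045 in controls. In the smooth muscle and pericyte list 3 of 10 markers passed and fell, Acta2 (−0.26), Tagln (−0.88) and Cspg4 (−0.46). The other 7 had log2 changes of −0.79 to 0.09 and did not pass, and the median of the list was −0.21. Its summed signal, in which Acta2 is the brightest gene, was 12969 to 15025 in mutants and 15897 to 16828 in controls. These 3 calls were not followed through the alternative analyses. The lowest log2 readings of these lists were 4.34, 5.44 and 4.75 in the order given, and 2, 1 and 2 of their markers read below the array medians. The part of these cells in the Itgb3 difference was not tested. In bulk tissue fewer cells of a type and less RNA per cell cannot be told apart.

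Itgb8 encodes β8, which pairs with αv and is one of the subunits that release TGF-beta from its latent form. Its log2 values were 8.01, 8.16, 8.01 and 8.18 in mutants, against 7.84, 7.77, 7.94 and 7.56 in controls. The groups did not overlap, but the lowest mutants and the highest control lay close together. The log2 change of 0.31 (95% interval 0.12 to 0.50, limma adjusted p = 0.0473) was just inside the threshold. The call was lost without any one of mutants 1 to 4 or of controls 1, 2 and 4, where the change ran from 0.24 to 0.34, and kept without control 3 (0.37). Itgb6, whose β6 does the same for TGF-beta in epithelia, read 4.63, 5.04, 4.80 and 4.90 in mutants and 5.03, 5.23, 5.01 and 4.76 in controls, below the array medians. It did not pass, with a log2 change of −0.16 (95% interval −0.41 to 0.08).

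The promoters of Itgb8 and Itgav are shown because these subunits form one receptor and only the first passed, although that contrast was not tested. Both come from RefSeq (GRCm38.p6) and cover 250 bases before to 50 after a transcript start, 5′ to 3′ on the gene's strand. Capitals mark every match, on either strand, to 5 motifs. The GC box was searched as GGGCGG and the Smad element as CAGAC. The palindromic Smad element, which contains no other motif searched, was GTCTAGAC. The cyclic AMP response element was TGACGTCA. The TATA box was TATAAA. No match overlapped another in either window. The windows are chr12:119238227-119238526, minus strand, for Itgb8 and chr2:83724147-83724446, plus strand, for Itgav.
Itgb8: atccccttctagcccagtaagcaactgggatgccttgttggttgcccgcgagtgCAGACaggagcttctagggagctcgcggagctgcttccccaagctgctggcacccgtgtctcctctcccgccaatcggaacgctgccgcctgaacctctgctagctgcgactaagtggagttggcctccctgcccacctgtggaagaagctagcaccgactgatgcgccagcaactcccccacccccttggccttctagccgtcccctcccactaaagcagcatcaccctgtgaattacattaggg
Itgav: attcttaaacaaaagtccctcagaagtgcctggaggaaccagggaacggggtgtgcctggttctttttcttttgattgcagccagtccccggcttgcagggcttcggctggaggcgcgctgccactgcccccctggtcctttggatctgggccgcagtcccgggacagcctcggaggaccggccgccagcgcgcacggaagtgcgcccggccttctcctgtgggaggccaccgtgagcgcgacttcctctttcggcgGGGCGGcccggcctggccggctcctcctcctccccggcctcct

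The Itgb8 window held 1 Smad element, which starts 196 bases before the transcript start, and none of the other motifs. The Itgav window held 1 GC box, just after the transcript start, and none of the others. Among 32851 promoter windows of this length, 49.6% held the Smad element, 35.7% the GC box, 13.6% the TATA box, 1.79% the cyclic AMP response element and 0.213% the palindromic Smad element. The table holds 25 windows for 22 of the 34 genes, of which 18 held the Smad element, 12 the GC box and 0 any of the other 3. These are matches of letters and say nothing of binding.

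The remaining beta subunits did not pass. Itgb1, whose β1 is the common partner of the laminin, collagen and fibronectin receptors, read 10.25, 10.22, 9.95 and 9.89 in mutants, against 10.18, 10.21, 10.29 and 10.41 in controls. Mutants 3 and 4 were the low arrays, and mutants 1 and 2 lay inside the control range. The log2 change was −0.20 (95% interval −0.41 to 0.01, limma adjusted p = 0.235), and the 3 brightest of its 6 probe sets gave −0.21 to −0.18. Itgb5, whose β5 with αv binds vitronectin, had a log2 change of −0.15, and its 4 probe sets ranged from −0.20 to −0.09. Itgb4 of the hemidesmosome had −0.04. The leukocyte subunits Itgb2 and Itgb7 had −0.03 and −0.13, and Itgb7 passed without control 1 (−0.20, limma adjusted p = 0.0451). Itgb2 read below the array medians.

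Both genes that fell encode laminin-binding alpha subunits. Itga7 encodes α7, which with β1 is the main integrin of skeletal muscle for laminin. Its log2 values were 5.35, 5.48, 5.44 and 5.32 in mutants, against 5.82, 5.54, 5.75 and 6.13 in controls. The mutant values lay close together below all controls, and control 4 was the highest. The means were 5.40 ± 0.08 in mutants and 5.81 ± 0.24 in controls (SD, n = 4 each), a limma log2 change of −0.41 (95% interval −0.66 to −0.17, adjusted p = 0.0448). This gene read low, its mean over the 8 arrays being under every array median. Its call was lost without any one of mutants 1 to 4 or of controls 1, 3 and 4, where the change ran from −0.44 to −0.31. It was kept without control 2 (−0.50), and lost without controls 1 and 3 together (−0.44, limma adjusted p = 0.129).

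Muscle markers fell on the same arrays as Itga7. Of 14 such genes 11 passed and fell, among them Tnnt3 of fast fibres at −1.23 and Acta1, skeletal actin, at −1.03. The call of Myod1, another of the 11 (−0.31), was lost in 6 of the 8 fits that left out an array. The summed linear signal of the 14 was 32079 to 39833 in mutants and 51498 to 58357 in controls, with no overlap. Their lowest log2 reading was 5.19, and the share of the fall of these markers in the Itga7 difference was not tested.

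Itga6 encodes α6, a laminin receptor subunit of epithelia, vessels and glia that pairs with β1 or β4. It read 10.55, 10.59, 10.59 and 10.60 in mutants, against 10.87, 10.85, 10.68 and 10.91 in controls. The mutant arrays differed from each other by far less than the controls did, and the groups did not overlap. The log2 change was −0.25 (95% interval −0.38 to −0.12, limma adjusted p = 0.028). A second, dimmer probe set read 8.84, 9.05, 9.47 and 9.37 in mutants, against 9.54, 9.44, 8.92 and 8.88 in controls, with each group split into a higher and a lower pair. Its log2 change was −0.01 (95% interval −0.44 to 0.41), and with the mean of both probe sets the change was −0.13 (limma adjusted p = 0.535). The call was also lost without any one of mutants 1 to 4 or of controls 1, 2 and 4 (−0.25 to −0.22), and kept without control 3 (−0.29).

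**Figure D3:**
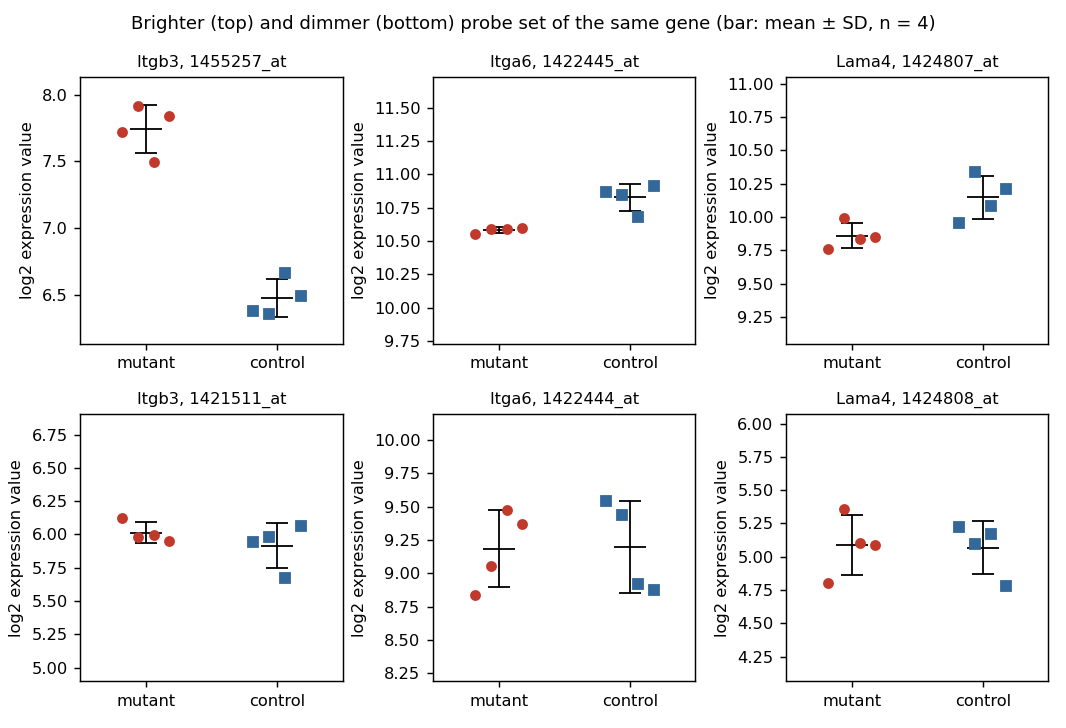
Log2 expression values on each array for the brighter probe set (top row) and a dimmer one (bottom row) of Itgb3, Itga6 and Lama4, with mutants left of controls and bars for mean ± SD of 4 arrays. In each of these genes the groups part or nearly part on the brighter set and overlap on the dimmer, with log2 changes of 0.10, −0.01 and 0.02 there.

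Cells that carry α6 were also read through their markers. Of 13 epithelial markers 1 fell, Krt18 at −0.34, beside 5.52% lower over all genes. That call was lost without any one of 6 of the arrays (−0.35 to −0.31). The summed linear signal of the list was 12127 to 16479 in mutants and 14017 to 17196 in controls. Of 7 Schwann cell and glial markers 3 fell, with 2149 to 2826 in mutants and 2822 to 3571 in controls. Among these 3, the calls of Sox10 and Foxd3 were each lost in 3 of the 8 fits that left out an array. The endothelial list, given above, had 4 of 12 markers higher and a higher summed signal in mutants. Below the array medians lay 0 epithelial, 1 glial and 1 endothelial marker. The part of these cells in the Itga6 difference was not tested. Itga3, the third laminin-binding alpha subunit, read 7.31, 7.53, 7.47 and 7.55 in mutants and 7.49, 7.49, 7.37 and 7.65 in controls. It had a log2 change of −0.04 (95% interval −0.20 to 0.13) and did not pass.

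No other alpha subunit passed. Among the collagen receptors Itga2 read 6.33, 6.31, 6.28 and 6.26 in mutants and 6.12, 6.04, 6.15 and 6.29 in controls, a log2 change of 0.14 (limma adjusted p = 0.173). Itga1 read 6.44, 6.59, 6.38 and 6.72 in mutants and 6.93, 6.73, 6.48 and 6.64 in controls, with −0.16, and the groups overlapped. Itga10, a collagen receptor of cartilage, had −0.06 and read below the array medians. Itga8, the receptor for nephronectin with β1, read 10.06, 10.15, 10.02 and 9.65 in mutants and 10.04, 9.80, 9.72 and 9.97 in controls, a log2 change of 0.09 (95% interval −0.16 to 0.34). Mutant 4 was its lowest array of all. Itga5, the classical fibronectin receptor subunit, had −0.02.

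Itga4, which binds fibronectin and the adhesion molecule VCAM-1, read 9.23, 9.20, 9.0 and 9.09 in mutants and 9.09, 9.41, 9.31 and 9.30 in controls. Its log2 change was −0.15 (95% interval −0.33 to 0.03, limma adjusted p = 0.301), with control 1 inside the mutant range. The next brightest Itga4 probe set gave −0.31 (95% interval −0.50 to −0.12). That set did not pass in the fit over all probe sets (limma adjusted p = 0.0689). Itga9, a receptor for tenascin-C, read 8.81, 8.86, 8.67 and 8.77 in mutants and 8.75, 8.93, 8.67 and 8.75 in controls, and differed by less than 0.01 in the mean. The leukocyte subunits Itgal, Itgam, Itgax and Itgae all read below the array medians, with log2 changes of −0.04 to 0.02. Itgal read 5.59, 5.56, 5.39 and 5.45 in mutants and 5.46, 5.44, 5.55 and 5.68 in controls. Itgax read 4.64, 4.73, 4.70 and 4.36 in mutants and 4.69, 4.49, 4.59 and 4.82 in controls. Of 14 macrophage and leukocyte markers 5 passed and fell on these arrays, with a summed linear signal of 2217 to 3344 in mutants and 3414 to 3694 in controls. Each of these 5 calls was lost in 5 or 6 of the 8 fits that left out an array. At such low readings a difference in these integrin subunits may not be measurable.

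Among the laminin chains 1 of 10 passed. Lama1 encodes α1, the chain of the laminin of early embryonic basement membranes, which epithelia and forming muscle carry before other alpha chains take over. Its log2 values were 7.49, 7.65, 7.44 and 7.26 in mutants, against 6.65, 6.50, 6.51 and 6.57 in controls. All mutants lay above all controls, and the controls differed little from each other. The means were 7.46 ± 0.16 in mutants and 6.56 ± 0.07 in controls (SD, n = 4 each), a limma log2 change of 0.90 (95% interval 0.72 to 1.08, adjusted p = 0.000326). The gene has a single probe set, and the call was kept in all 19 alternatives, with changes of 0.84 to 0.97. Of 12 markers of neural crest mesenchyme 1 rose, Prrx1 by 0.76 (0.67 and no longer passing without controls 1 and 3), and 1 fell, Tfap2b at −1.50. Their summed linear signal was 14537 to 15620 in mutants and 11291 to 13819 in controls, and 2 of the 12 read below the array medians. Of the carriers named above, 11 of 14 muscle markers passed and fell, with a median log2 change of −0.69. Only 1 of 13 epithelial markers passed and fell, beside 5.52% lower over all genes, and the median was −0.21. The summed epithelial signals overlapped, at 12127 to 16479 in mutants and 14017 to 17196 in controls. The part of any of these cells in the Lama1 difference was not tested.

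The chains that assemble with α1 did not pass. Lamb1, the most widespread beta chain, had a log2 change of −0.01 (95% interval −0.20 to 0.17) and read 12.00, 11.97, 11.75 and 11.74 in mutants, against 11.81, 12.04, 11.86 and 11.80 in controls. Lamc1, the most widespread gamma chain, read 8.31, 8.64, 8.37 and 8.33 in mutants and 8.61, 8.75, 8.50 and 8.57 in controls. Mutant 2 was the one mutant inside the control range, and the log2 change was −0.19 (limma adjusted p = 0.203). Array readings of different probe sets have no common scale, so these values do not say which chain is more abundant.

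The other alpha chains did not pass either. Lama4, a chain of vessels and of embryonic muscle and nerve, read 9.76, 9.99, 9.84 and 9.85 in mutants, against 9.96, 10.34, 10.08 and 10.21 in controls. Only mutant 2 and control 1 crossed. The log2 change was −0.29 (95% interval −0.48 to −0.10, limma adjusted p = 0.0676), just outside the threshold. It passed without control 1 (−0.35) and without controls 1 and 3 (−0.42, limma adjusted p = 0.0254), and its dimmer probe set gave 0.02. Lama2, the chain of mature muscle basement membrane, had −0.15 (95% interval −0.38 to 0.09). Lama5, found under most epithelia, had −0.03 with an interval of −0.16 to 0.10.

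The epithelial chains Lama3 and Lamb3, which assemble together, had log2 changes of −0.17 and −0.07. Their spread was wide, as Lamb3 read 6.29, 6.58, 6.71 and 6.96 in mutants and 6.71, 6.68, 6.46 and 6.95 in controls. Mutant 1 was the lowest array for both genes. Lamb2, the beta chain of the neuromuscular junction, read 7.32, 7.20, 7.37 and 7.30 in mutants and 7.44, 7.33, 7.43 and 7.31 in controls, a log2 change of −0.08. Lamc3 read 6.14, 6.18, 6.10 and 6.02 in mutants and 5.95, 6.17, 6.09 and 5.93 in controls, with a change of 0.07. Each of the 29 genes that did not pass had a 95% interval inside −0.5 to 0.5. Their log2 changes lay between −0.29 and 0.14.

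The genes of matrix proteins that integrins bind moved in both directions. Of 15 measured ligands 4 rose and 4 fell, with a median log2 change of −0.12. Edil3, a secreted protein that binds αvβ3 and αvβ5 through an RGD sequence, rose by 1.68 and read 8.04, 8.37, 7.76 and 8.07 in mutants, against 6.67, 6.35, 6.63 and 5.85 in controls. With the mean of its 6 probe sets that rise was 0.37. Vtn, encoding vitronectin, the classical ligand of the same receptors, rose by 1.09 and read 6.19, 6.52, 5.61 and 5.88 in mutants, against 4.72, 4.79, 5.22 and 5.11 in controls. The 4 mutant values of each lay above the 4 control values. Vtn read low, its mean over the 8 arrays being under every array median.

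Other ligands moved either way. Thbs1, a matrix protein that binds αvβ3 among other receptors, rose by 0.52, and Col3a1 by 0.24, the second of which lost its call without any one of the 8 arrays (0.21 to 0.27). Col3a1 gave 0.69 on its more variable probe set, and Thbs1 did not pass without controls 1 and 3 (0.43). Thbs4 of tendon fell by 1.70 on the log2 scale, and read 10.38, 10.59, 10.39 and 9.99 in mutants, against 11.94, 12.18, 11.87 and 12.16 in controls. Tnc, encoding the α9 ligand tenascin-C, fell by 0.71, with means of 9.50 ± 0.33 in mutants and 10.21 ± 0.19 in controls (SD, n = 4 each) and no overlap. That call was lost without control 2 (limma adjusted p = 0.0625) or control 4 and with the mean of its probe sets (−0.34, limma adjusted p = 0.0545). Col1a1 and Col1a2 of collagen I fell by 0.65 and 0.42. Fn1, encoding fibronectin, changed by −0.09 and did not pass.

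**Figure D4:**
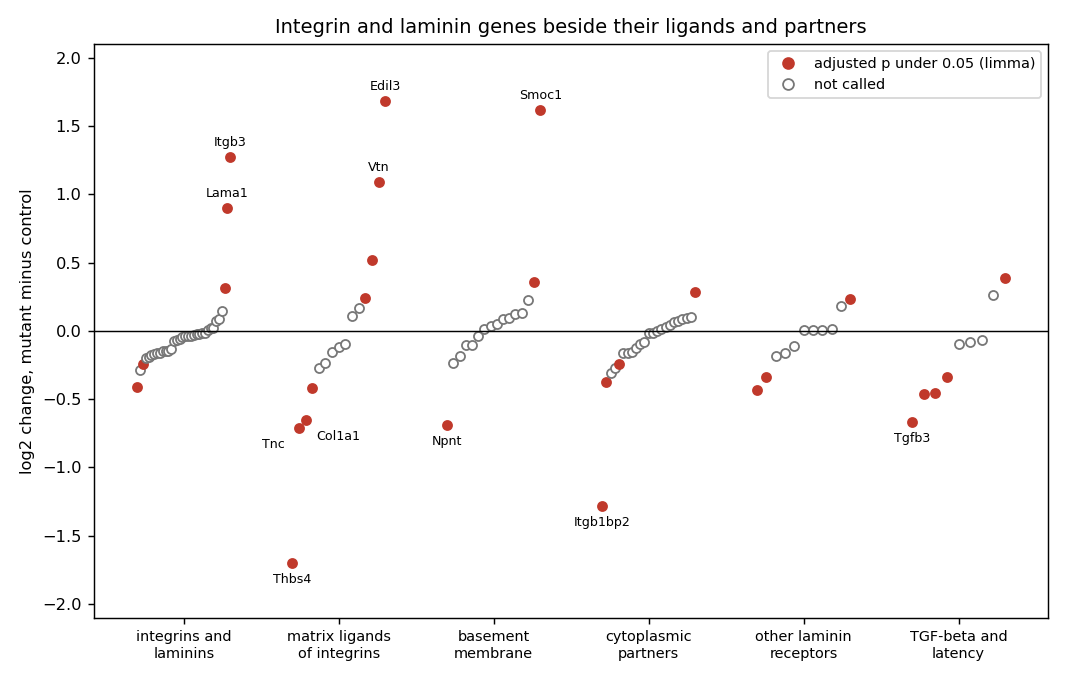
Log2 change (mutant minus control, vertical axis) of each measured gene among integrins and laminins and in 5 lists of ligands and partners. Filled points passed an adjusted p of 0.05 in limma, and names are given for those with a change beyond 0.6. Ligands span from −1.70 for Thbs4 to 1.68 for Edil3, whereas most integrin and laminin genes lie near 0.

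Inside the cell, 1 of 23 measured partners of integrins rose and 3 fell, with a median log2 change of −0.01. Itgb1bp2, encoding melusin, which binds the tail of β1 in striated muscle, fell by 1.28 and read 9.37, 9.35, 8.72 and 9.08 in mutants, against 10.12, 10.58, 10.28 and 10.65 in controls. No mutant came near the lowest control. Vcl, encoding vinculin of focal adhesions, fell by 0.38, but with the mean of its 2 probe sets it had −0.10 (limma adjusted p = 0.319). Fermt2, encoding kindlin-2, which activates integrins, fell by 0.24, with the call lost without mutant 3 or control 2 (−0.23 and −0.22). The adaptor gene Bcar1 rose by 0.28. Tln1, encoding talin, the other activator, had −0.28 and missed the threshold (limma adjusted p = 0.0562).

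Of 16 basement membrane genes other than laminins 2 rose and 1 fell, with a median log2 change of 0.04. Smoc1, a secreted calcium-binding protein of basement membranes, rose by 1.62 and read 9.19, 9.21, 9.44 and 9.55 in mutants, against 7.66, 7.66, 7.80 and 7.79 in controls. The gap was wider than the spread inside either group. Nid2, which links laminin to collagen IV, rose by 0.35, with its call lost without controls 1 and 3. Npnt, encoding nephronectin, the ligand of α8β1, fell by 0.69 and read 10.01, 10.09, 9.80 and 10.18 in mutants, against 10.68, 10.80, 10.57 and 10.78 in controls. All 4 mutants lay below the lowest control, while its receptor gene Itga8 did not pass. With the mean of its probe sets the Npnt change was −0.45. The collagen IV genes Col4a1 and Col4a2 had 0.13 and 0.09 and did not pass.

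Of 11 other receptors for laminin and their helpers 1 rose and 2 fell, with a median log2 change of 0.00. Dag1, encoding dystroglycan, the main laminin receptor beside integrins, fell by 0.34 and read 10.44, 10.45, 10.41 and 10.39 in mutants, against 10.73, 10.82, 10.66 and 10.83 in controls. That fall was called on the brightest of its 4 probe sets. With their mean the gene had −0.19 and did not pass (limma adjusted p = 0.57), and the other sets are not given singly. Sgcb, a sarcoglycan of the muscle membrane, fell by 0.43. Sdc1, a syndecan that also binds laminin, rose by 0.23, but leaving out 1 array removed that call in 5 of 8 cases (0.22 to 0.24).

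The genes around TGF-beta release were read as well. Of 9 measured genes of TGF-beta ligands, latency proteins and receptors, 1 rose and 4 fell. Tgfb3 fell by 0.67, the latency protein genes Ltbp3 by 0.45 and Ltbp1 by 0.34, and Tgfbr2 by 0.47, while Tgfbr1 rose by 0.39. With the mean of their probe sets Tgfbr2 had −0.21 and no longer passed, and Ltbp3 had −0.24. Ltbp3 also missed the threshold without controls 1 and 3 (−0.48), and Tgfbr1 gave 0.82 on its more variable probe set. Leaving out 1 array removed the Ltbp1 call in 7 of 8 cases (−0.37 to −0.27). Tgfb1, whose latent form αvβ6 and αvβ8 are known to activate, had −0.10 and read below the array medians, and Tgfb2 had 0.27, neither passing.

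**Figure D5:**
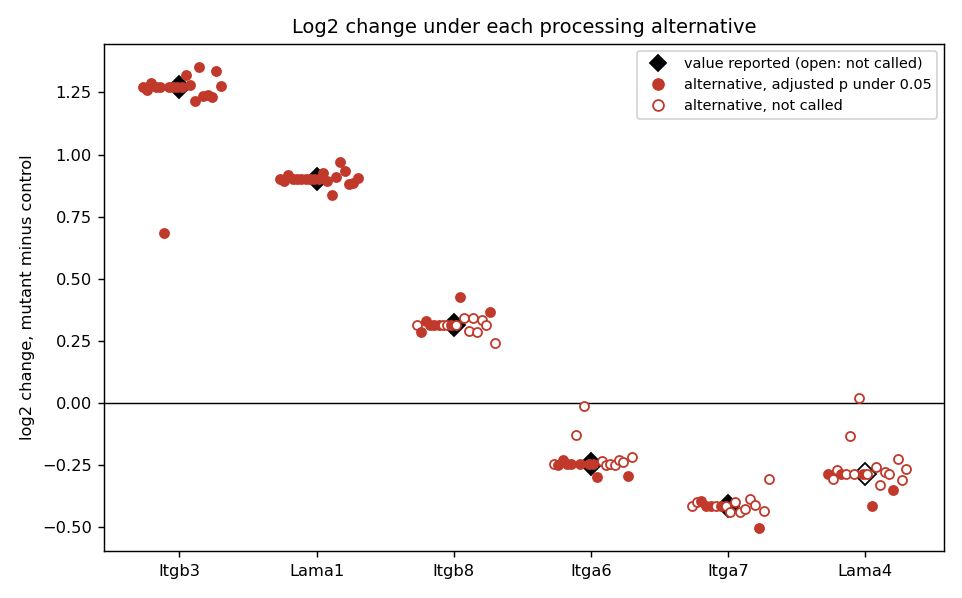
Log2 change (mutant minus control) of the 5 genes that passed and of Lama4 in each alternative analysis (circles) and as reported (diamonds), with filled symbols for an adjusted p under 0.05. Itgb3 and Lama1 stay filled throughout, the outlying Itgb3 circle being the mean of its probe sets (0.68), while the other 4 genes pass in some settings only.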

How the data were processed

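RNA of 8 tongue buds was hybridised to Affymetrix arrays. The authors deposited 1 log2 value for each probe set and array, computed by RMA, per the submitters' processing notes. That method corrects background, equalises the distributions between arrays and condenses the probes of a set, so a shift shared by most genes would be removed. Neither its version nor its settings is given in the sources used here. The number of arrays limits the precision.

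Of 45101 probe sets, 64 were controls, 34945 named 1 gene in the platform annotation, 932 several and 9160 none, and only those naming 1 gene were used. All 34 integrin and laminin genes matched a RefSeq gene. Their 73 probe sets leave 14 genes with a single one. Group differences were tested by limma (version 3.58.1, R 4.3.3), two-sided, with lmFit, eBayes and Benjamini-Hochberg adjustment over 18193 genes. Log2 changes are mutant minus control, and SE and 95% intervals are the moderated ones. Single probe sets were fitted over all 34945, of which 5.94% passed. Summed signals add 2 to the power of each log2 value. The procedure was tested on simulated data.

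The genes, the partner and marker lists and their roles were chosen with earlier results of these data known. Values on every array are given for each gene that passed and for the 2 with the smallest p in each role, and for partner lists the genes that passed and the 3 with the smallest p could be named. Partners of these genes and figure examples beyond that rule were chosen after their values were seen.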

Additional observations from a re-analysis of the deposited data

Results flagged for a closer look

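In 2 of 68 groups of 4 arrays, 1 array lay far from the other 3 by Dixon's test, which flags about 1 in 20 groups by chance. Itga10 read 4.33 on mutant 4, against 4.07 to 4.11 on the other mutants. Itgb4 read 5.95 on mutant 1, against 6.23 to 6.27 on the other mutants. Neither gene passed.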

How the results depend on the processing

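In all, 19 alternatives were run, 8 of which left out 1 array. Itgb3 and Lama1 passed in each of them. The number of integrin and laminin genes lower in mutants, 2 as reported, was 1 with the replicate block, with repeated quantile normalization, with the mean of all probe sets, without probe sets ending in _x_at, _s_at or _a_at and without variance moderation. It was 3 with genes above the median of all probe sets and with trend and robust moderation. By limma it was 0 with the probe set of highest variance, where 2 were lower at an unadjusted p under 0.05. With 1 array left out it ranged from 0 to 2, and 4 to 7 were lower at an unadjusted p under 0.05. No other testing tool was run. The number higher, 3 as reported, was 2 to 3 throughout. Over all genes, 764 were higher and 1004 lower. With the replicate block 329 were higher and 637 lower, without controls 1 and 3 481 were higher, without variance moderation 636 were lower, and with 1 array left out 428 to 623 were higher and 687 to 960 lower. Same-numbered arrays correlated at −0.40 to 0.02 in their deviations from the group means, so no pairing by number showed. Mutant 1 and control 3 reached 0.33. Every other difference between arrays enters these correlations too, so they cannot decide whether same-numbered buds share a litter. Under the block Lama4 passed (limma adjusted p = 0.0476), and Itga6 (0.0934), Itga7 (0.125) and Itgb8 (0.148) did not.

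Genes that did not pass changed sign in 43 cases, none of them called in either fit. The largest value after the change of sign was that of Lama5, and the largest before it was that of Lama4 (−0.29). Itga9 was −0.023 with repeated quantile normalization, −0.028 with the mean of all probe sets, −0.035 with the highest variance and −0.061 without controls 1 and 3. Itgae was −0.051 with the mean and −0.021 without controls 1 and 3. Itgam was 0.0014 with repeated normalization and 0.0037 with centred medians, where Lamb1 was 0.0041. Itgav was −0.0076 with the mean and −0.060 with the highest variance, where Lama4 was 0.021 and Lama5 0.18, and Lama5 was 0.048 with the mean. With 1 array left out, Itga3 from −0.078 to 0.016, Itga5 from −0.070 to 0.026, Itga9 from −0.031 to 0.057, Itgae from −0.076 to 0.075, Itgal from −0.068 to 0.013, Itgam from −0.062 to 0.039, Itgav from −0.026 to 0.065, Itgax from −0.094 to 0.042, Itgb2 from −0.089 to 0.046, Itgb4 from −0.082 to 0.033, Lama5 from −0.062 to 0.0047, Lamb1 from −0.059 to 0.041 and Lamb3 from −0.17 to 0.048 were the ranges. The cause was not tested.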

Other observations

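A dimmer probe set of Itga4, the fibronectin and VCAM-1 receptor subunit, varied more inside the groups than any of its other 4. That set read 7.20, 5.52, 6.45 and 6.31 in mutants 1 to 4, against 8.79, 8.52, 5.05 and 4.94 in controls 1 to 4. Its control SD was 2.12 on the log2 scale, and its log2 change of −0.45 had a 95% interval of −2.50 to 1.59.

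The dimmer probe set of Itga6 split both groups into pairs. It read 9.47 and 9.37 on mutants 3 and 4 and 8.84 and 9.05 on mutants 1 and 2. In controls it read 9.54 and 9.44 on controls 1 and 2 and 8.92 and 8.88 on controls 3 and 4. On the same arrays the nuclear RNA Malat1 read 9.80 and 9.24 on mutants 3 and 4, 7.58 and 8.28 on mutants 1 and 2, 9.73 and 9.02 on controls 1 and 2, and 7.49 and 7.11 on controls 3 and 4. The likeness was noticed after the values were seen, and its cause was not tested.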
